A study of Mus with 4 samples.

Results

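The comparison described here sets the tumor labelled shNrf3-NC against the tumor labelled shCtrl-NC, the arrays of mice fed normal chow, which are 2 of the 4 arrays of the study. Its members are all genes whose mean over the 4 arrays lay at or above the median of all rows of the array (5.73 on the log2 scale), with the probe set of highest mean taken for each symbol. That left 10021 of 19505 measured genes. Each side is 1 array, so the differences below are sizes without a test, and a gene is counted as past 2-fold where they reach 1 or more on the log2 scale.

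Both tumors grew from Renca, a mouse renal adenocarcinoma line, stably expressing either a short hairpin RNA that targets Nrf3, called shNrf3, or the control hairpin shCtrl. The cells were placed under the flank skin of male BALB/cCrSlc mice, an immunocompetent strain, bought at 4 to 6 weeks of age and kept for 17 weeks on the normal chow CE-2 (NC). Tumors were taken 2 weeks after injection. The other 2 arrays, shCtrl-HFD and shNrf3-HFD, came from mice kept for the same time on the high-fat diet HFD-60 and serve here as a second hairpin comparison that shares no array with the NC one. Whether an array holds 1 tumor or a pool is not said in the labels, nor how many hairpin sequences or clones were used. The hairpins act in the injected cells, while the RNA is that of the whole tumor with the host cells in it.

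Nrf3, encoded by Nfe2l3, belongs with NRF1 and NRF2 to the cap'n'collar family of basic leucine zipper factors, which pair with small Maf proteins on antioxidant response elements. It is held in the membrane of the endoplasmic reticulum and is degraded there until it is cut and moves to the nucleus. In cancer cell lines it is known for raising Pomp, a chaperone that assembles the proteasome core, and for acting on cholesterol synthesis and on macropinocytosis, the uptake of fluid and nutrients by large vesicles.

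Values on the 4 arrays are given below with shCtrl first, shNrf3 next, the NC pair before the HFD pair. In this order Nfe2l3 read 6.22, 5.56, 5.77 and 6.05. The NC difference of -0.66 has the direction of the labels and the HFD difference of 0.28 the opposite one. Of the 1000 genes nearest in level, 18.3% had a lower NC difference than Nfe2l3. All 4 readings were low against the negative controls, whose 95th percentiles were 8.97 to 9.35, so the probe set gives no check of the knockdown, and groups are called by the labels of their arrays.

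The shCtrl-NC array had the weakest signal of the 4. Its positive control rows had a median of 9.19, against 9.57 to 9.75 on the other arrays, while the medians of the negative controls were alike (5.35 to 5.39). On shCtrl-NC 3948 genes read above that array's own 95th percentile of negative controls, against 4750 on shNrf3-NC. The positive control rows, which are no gene of interest, had a median NC difference of 0.30, with 23.7% of 1324 rows past 2-fold higher and 6.42% lower. Of the 5222 negative control rows 16.9% were past 2-fold higher and 22.3% lower. A 2-fold difference between readings near the control level is therefore of little weight. Among the genes past the filter the median difference was 0.14 and went from 0.02 in the lowest of 10 equal bins of level to 0.26 in the highest. An alternative that removes this trend by loess on level is therefore given beside the counts, and a gene is called above the bar where the brighter of the NC arrays reached its 95th percentile of negative controls, as 4866 genes did. Where a reading lay below the control median of its array it was set to that median, so its difference is a bound and is marked as "or more", or as "or lower" for a negative one.

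**Figure D1:**
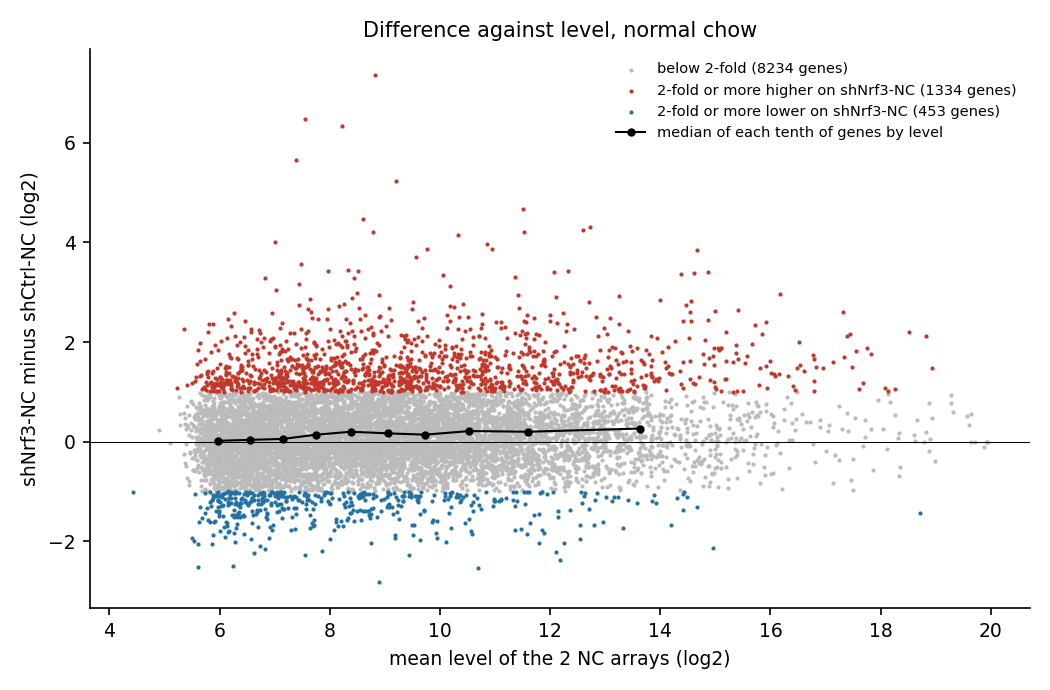
Each point is 1 of 10021 genes, with the mean level of the NC arrays (log2) across and shNrf3-NC minus shCtrl-NC (log2) upward, and the line joins the medians of 10 bins of equal size by level. The 1334 genes past 2-fold higher (red) outnumber the 453 lower (blue), and the medians go from 0.02 in the lowest bin to 0.26 in the highest.

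Of the 10021 genes 1334 (13.3%) were past 2-fold higher on shNrf3-NC and 453 (4.52%) lower, so that 74.7% of these were higher. That share depended on the scaling. It was 81.6% after centring each array on the median of all its rows, 66.6% after loess on level, 64.8% after cyclic loess and 62.2% after quantile normalization. Centring the arrays on their medians over the filtered genes, which moves all differences down by 0.21, gave 53.9%. Among the 4866 genes above the bar 17.6% were higher and 3.41% lower. A gene reaches the bar through the NC array where it is high, and the bar was 9.35 on shCtrl-NC and lower, at 9.0004, on shNrf3-NC, so this split is set in part by the bar and is no support for the split over all filtered genes. After loess on level 1111 of the 1334 higher and 425 of the 453 lower genes were past 2-fold in the same direction.

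The HFD arrays show which of the NC arrays stands apart in a gene. Of the 1334 higher genes, 84 were past 2-fold higher with shNrf3 on the high-fat diet too (0.838% of all filtered genes, of which 2.55% were higher and 7.13% lower on that diet). Of the rest, 94 were high on shNrf3-NC, which stood above each of the other 3 arrays by 2-fold or more. A much larger number, 487, were low on shCtrl-NC, which lay below each of the other 3 by 2-fold or more. In another 10 genes both NC arrays stood apart, and in 659 neither did. Of the 453 lower genes, 83 were lower in both diets (0.828%), 79 were high on shCtrl-NC alone, 19 low on shNrf3-NC alone and 272 neither. Over all filtered genes, shCtrl-NC was the lowest of the 4 arrays in 41.6% and by 2-fold or more in 511, where the same was true of 22 genes for shNrf3-NC, 33 for shCtrl-HFD and 117 for shNrf3-HFD. The results are ordered below by these patterns.

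**Figure D2:**
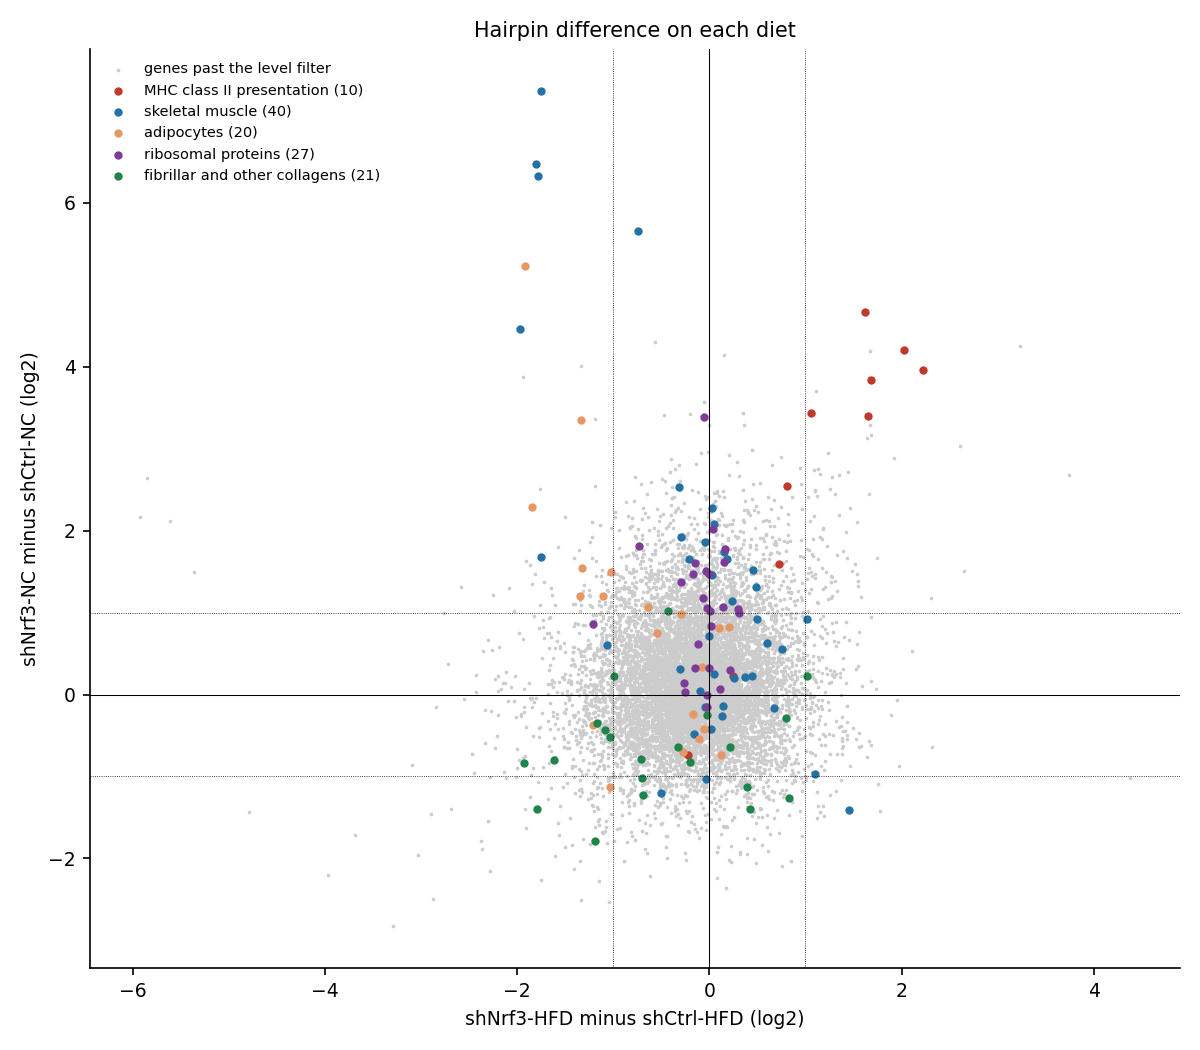
Each point is a gene, with its hairpin difference on the high-fat diet across and on normal chow upward (shNrf3 minus shCtrl, log2), and coloured points are the measured members of 5 gene lists. MHC class II genes lie high on both axes (Cxcl9, a chemokine of no coloured list, reaches 4.25 and 3.24), the muscle and fat genes with the largest differences on normal chow below 0 on the high-fat diet, and most ribosomal protein genes above 0 on normal chow and near 0 on the high-fat diet.

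Antigen presentation on MHC class II made the clearest group. Of 10 measured members 8 were past 2-fold higher on shNrf3-NC and 0 lower, against 8.56% higher and 6.68% lower among all 19505 measured genes, and 6 of the 8 were higher in both diets. These shares are the ground for the counts of the lists below, or 13.3% and 4.52% where all or nearly all members passed the filter. The median NC difference was 3.41 (3.21 to 3.49 over the 6 scalings), where that of all measured genes was -0.03. The HFD median was 1.34, with 6 of 10 higher and 0 lower, against 5.17% and 5.23% of all measured genes on that diet. H2-DMb1, part of the H2-M complex that loads peptides on class II molecules, read 9.16, 13.84, 10.78 and 12.40, a difference of 4.67. H2-DMb2, a near copy, read 8.87, 12.83, 9.15 and 11.38, and their partner H2-DMa read 6.26, 9.69, 7.33 and 8.39. H2-Ab1, a chain of the peptide-binding I-A molecule, read 9.42, 13.63, 10.73 and 12.75, and the other I-A chain, H2-Aa, read 12.75, 16.59, 13.76 and 15.44. In all 5 genes, named for the size of their NC difference, both shNrf3 arrays read above both shCtrl arrays, with shNrf3-NC highest and shCtrl-NC lowest. Ciita, the master regulator of class II transcription, read 5.68, 7.13, 5.68 and 6.95, below the bar on all arrays. Ifi30, a thiol reductase of the endosome that opens antigens, read 10.73, 13.27, 12.48 and 13.29, so that its NC difference of 2.54 comes with a low shCtrl-NC array. Outside this list Slc15a3, a transporter of lysosomal membranes, read 9.72, 13.01, 10.32 and 11.99, and Mid1, a ubiquitin ligase on microtubules, read 7.19, 9.87, 7.30 and 11.04, both higher with shNrf3 in both diets. The H2 genes resemble each other in sequence, and a probe set of a member may also read its relatives. In bulk tumor RNA fewer cells of a type and less RNA per cell cannot be told apart, here and in every result below.

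The interferon-gamma-induced GTPases that attack vacuoles of intracellular microbes followed the same order. Of 11 measured members of the GBP and IRG families 9 were higher and 0 lower in NC, 5 of them in both diets, and the median was 2.28 in NC and 0.77 in HFD. Iigp1 read 8.61, 11.74, 9.45 and 11.08. Gbp4 read 13.10, 15.84, 13.79 and 14.88, and Gbp2 read 13.21, 15.63, 13.97 and 15.01. The shNrf3 arrays again lay above both shCtrl arrays in these 3 genes, each with a large NC difference and past 2-fold in both diets. Gbp7, with an NC difference of 2.81, read 11.30, 14.10, 12.80 and 13.46. It was low on shCtrl-NC alone, and its HFD difference was 0.66. Gbp genes are also near copies of each other. Il18bp, which encodes the soluble inhibitor of interleukin 18, read 6.62, 10.06, 7.96 and 9.04, a difference of 3.44 in NC and 1.09 in HFD. The receptor and signalling genes of the interferon-gamma pathway itself differed less, with 2 of 14 higher, 0 lower and a median of 0.34. Irf1 read 13.45, 13.97, 13.64 and 14.06 and Jak2 14.24, 13.82, 14.39 and 13.83. Ifng, the cytokine's own gene, lay under the control median of both shCtrl arrays and read 5.49 and 6.29 on the shNrf3 arrays, far below the bar.

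Proteasome subunits of the immune type were higher in NC and differed little in HFD. All 5 measured members were past 2-fold higher in NC, with a median of 1.91, and 0 were higher in HFD, where the median was 0.34. Psmb9, a catalytic subunit that favours peptides fitting class I molecules, read 8.25, 12.39, 10.24 and 10.39, so shCtrl-NC was low and shNrf3-NC high against nearly equal HFD arrays. Psmb10 read 10.32, 12.74, 12.23 and 12.38, and only shCtrl-NC stood apart. The class I list shared this pattern in part, with 8 of 14 higher, 0 lower and a median of 1.12 in NC, against 1 of 14 higher and a median of 0.23 in HFD. Tap1, a chain of the transporter that brings peptides into the endoplasmic reticulum, read 10.65, 13.56, 12.14 and 12.88. H2-M3, a class I molecule that presents formylated peptides, was the member past 2-fold in both diets, at 7.42, 10.36, 8.18 and 9.42. In this list, whose members all passed the filter, shCtrl-NC was the lowest array in 11 of 14 genes, against 41.6% of the filtered genes.

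Chemokine genes were mixed in pattern. Of 37 measured 13 were past 2-fold higher in NC and 0 lower, with a median of 0.44, and 5 were higher in both diets. Cxcl9, which draws activated T cells through Cxcr3, read 10.47, 14.73, 10.43 and 13.66. The shCtrl arrays were nearly equal and both shNrf3 arrays stood above them, and Cxcl9 had the largest smaller-of-both difference among genes higher in both diets. Cxcl11, which acts on the same receptor, read 7.07, 9.52, 7.91 and 7.98, and Ccl9 read 12.90, 14.99, 13.28 and 13.50, each high on shNrf3-NC alone. Cxcl13, which guides B cells into follicles, read 9.01, 12.88, 8.69 and 6.74, with the highest value on shNrf3-NC and the lowest on shNrf3-HFD. Ccl12, a ligand of Ccr2, read 7.74, 10.41, 9.995 and 11.35, and Ccr2 itself, the receptor that brings monocytes out of the blood, read 8.90, 10.36, 9.60 and 11.14.

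Among cytokine genes of inflammation 6 of 23 were higher and 1 lower in NC, with a median of 0.44. Il1rn, which encodes the natural antagonist of the interleukin 1 receptor, read 8.46, 10.95, 9.24 and 10.34. Tslp, an epithelial cytokine, read 11.58, 14.08, 13.29 and 14.54. Il6 was the member lower, at 12.46, 10.82, 10.25 and 9.29, with shCtrl-NC above the other 3 arrays. Of 19 immune checkpoint genes 6 were higher and 0 lower, at a median of 0.61. The genes of both PD-1 ligands were among them. Cd274 (PD-L1) read 9.45, 11.15, 9.16 and 10.49, and Pdcd1lg2 (PD-L2) read 6.64, 9.30, 6.24 and 7.51, so in both the shNrf3 arrays lay above the shCtrl arrays.

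Macrophage and monocyte markers were higher in NC. Of 32 measured 18 were past 2-fold higher and 0 lower, with a median of 1.08, and 8 were higher in both diets. Their mean level was 9.14, 10.28, 9.34 and 9.78 on the 4 arrays. Ly6c1 and Ly6c2, surface proteins of inflammatory monocytes with near-identical sequences, read 13.64, 16.09, 13.95 and 15.26 and 9.26, 11.76, 10.04 and 11.13. Itgam, the integrin chain CD11b, read 10.67, 12.57, 11.05 and 12.22, and shNrf3 lay higher in both diets in these 3 genes. The defining receptor gene Csf1r differed less, at 11.09, 11.75, 11.59 and 12.02, as did Adgre1 (F4/80), at 7.94, 8.64, 8.10 and 8.75. Folr2 and Lyve1, which mark tissue-resident macrophages, were high on shNrf3-NC alone, Folr2 at 6.88, 9.64, 7.42 and 8.37 and Lyve1 at 6.73, 9.19, 6.34 and 5.89.

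Receptors for the constant part of antibodies went with the macrophage markers. Of 8 measured 6 were higher and 0 lower, and the median was 1.85 in NC and 0.66 in HFD. Fcgr4, an activating receptor of myeloid cells, read 7.83, 11.70, 8.63 and 10.29, the only member past 2-fold in both diets. Fcgr3 read 14.05, 15.92, 14.73 and 15.51. Complement genes had 10 of 18 higher and 0 lower in NC, with a median of 1.12, but a median of -0.28 in HFD. C1qa, part of the recognition unit, read 10.71, 12.54, 12.22 and 12.35 and was low on shCtrl-NC. C4b (9.45, 11.22, 9.45 and 8.88) and the C1 inhibitor gene Serping1 (9.04, 10.62, 8.95 and 7.09) were instead high on shNrf3-NC alone. C6, of the membrane attack complex, read 5.51, 8.55, 5.66 and 8.27, higher with shNrf3 in both diets though below the bar.

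Granzymes are the proteases of cytotoxic granules. The 5 granzyme genes above the bar read higher with shNrf3 in each diet, not all past 2-fold, while T cell markers stayed near the control rows. Of 20 genes of natural killer and cytotoxic cells 8 were higher and 1 lower in NC, with a median of 0.69, while 8 lay under the control medians of the NC arrays. Gzmb read 6.69, 10.89, 7.69 and 9.36, a difference of 4.20 in NC and 1.67 in HFD. Gzmf read 7.90, 10.34, 9.92 and 11.58 and Gzmg 8.99, 10.31, 10.88 and 12.42, higher with shNrf3 in each diet, although these readings were lower on shNrf3-NC than on shNrf3-HFD. Gzmc read 7.16, 9.29, 9.97 and 10.32, low on shCtrl-NC alone and with an HFD difference of 0.35. Gzma read 8.30, 9.18, 7.46 and 8.88, below 2-fold in NC at 0.88. The Gzm genes lie in a family of close copies. Prf1, the pore former that granzymes enter by, read 5.47, 6.07, 5.67 and 6.65, and Ncr1, a defining natural killer receptor, was below the control median on both NC arrays. Of 16 T cell markers 4 were higher and 0 lower, 0 reached the bar, and the median of 0.18 moved between -0.03 and 0.30 with the scaling. The T cell receptor chain gene Cd3g read 5.76, 7.84, 5.21 and 5.02 and Cd8a read 5.59, 7.43, 5.60 and 5.13, each high on shNrf3-NC alone. B and plasma cell markers had 2 of 12 higher and 1 lower, with 9 below the control median on both NC arrays. The part of these cell types in the antigen presentation and interferon differences was not tested.

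Neutrophil markers had 7 of 24 higher and 1 lower in NC, with a median of 0.62, and in 17 of the 24 shCtrl-NC was the lowest array, against 29.8% of all measured genes. Acod1, which makes itaconate in activated myeloid cells, read 6.95, 9.85, 7.73 and 9.66. The calprotectin gene S100a9 read 13.78, 14.22, 14.71 and 14.90, with both HFD arrays above both NC arrays. Dendritic cell markers had 3 of 19 higher and 1 lower, with a median of 0.09, and 8 were below the control median on both NC arrays. Among them Clec12a, an inhibitory lectin receptor of myeloid cells, read 5.86, 9.02, 6.76 and 8.44.

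Type I interferon-stimulated genes did not share the order of the antigen presentation genes. In NC 5 of 25 were higher and 0 lower, at a median of 0.33, while in HFD the counts were 0 and 13 and the median -1.08. Ifit1, which binds foreign RNA, read 8.94, 10.24, 10.71 and 9.06, so shNrf3 lay higher on normal chow and lower on the high-fat diet. Ifi27l2a read 7.65, 10.17, 9.51 and 7.75 in the same way. Whether the hairpin difference itself differs between the diets was not tested, with 1 array in each cell of the design.

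Skeletal muscle genes were high on shNrf3-NC alone and held the largest differences of the comparison. Of 40 markers 18 were past 2-fold higher and 3 lower, with a median of 0.82, and in 29 shNrf3-NC was the highest array, against 21.4% of all measured genes. It stood above the other 3 arrays by 2-fold or more in 17. Acta1, the actin of the sarcomere, read 5.14, 12.51, 6.48 and 4.73, a difference of 7.13 or more and a fold of at least 140. The fast light chain gene Myl1 read 5.06, 11.38, 6.46 and 4.67 (6.00 or more), and the perinatal heavy chain gene Myh8 read 4.31, 10.78, 5.82 and 4.02 (5.40 or more). Myh4, a fast heavy chain gene, read 4.56, 10.21, 4.76 and 4.02 (4.83 or more). Mylpf, another fast light chain, read 6.36, 10.83, 7.13 and 5.16, and the troponin gene Tnni2 read 7.38, 9.92, 7.49 and 7.18. The other 3 arrays were near or below the control medians in Acta1, Myl1, Myh8 and Myh4. Ckm, the muscle creatine kinase, read 5.95, 8.23, 6.40 and 6.42, below the bar. The list of muscle progenitors and regeneration, with Pax7 and Myod1, had 0 of 11 past 2-fold in either direction and 8 below the control median on both NC arrays. The mean level over the muscle list was 5.72, 7.03, 5.44 and 5.35.

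Some fat cell genes also had their highest reading on shNrf3-NC, which was highest in 9 of 20 adipocyte markers and stood apart by 2-fold in 4. Of the 20 markers 8 were higher and 1 lower in NC, with a median of 0.82, against 0 and 9 at a median of -0.60 in HFD. Retn, the gene of the fat hormone resistin, read 6.58, 11.81, 7.52 and 5.60. Adipoq, which encodes adiponectin, read 8.38, 11.73, 9.70 and 8.36, and Cidec, a lipid droplet protein, read 8.98, 11.27, 10.15 and 8.31. In these 3 genes shNrf3-NC was highest and shNrf3-HFD lowest or level with shCtrl-NC. Other fat markers did not follow, since Lep, the leptin gene, was below the control median on all 4 arrays and Plin1, the droplet coat of fat cells, read 5.78, 5.40, 6.48 and 5.27. The mean level over the adipocyte list was 6.66, 7.50, 7.17 and 6.48. The muscle and fat genes are those of tissues that lie next to a flank tumor, and the part of such tissue in the other NC differences was not tested.

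Several secreted proteins shared the pattern of a single high array. Saa3, an acute phase serum amyloid, read 12.70, 16.07, 12.16 and 10.97. Apoc1, a lipoprotein component, read 5.01, 9.02, 6.23 and 4.90 (3.64 or more), and Apoe read 15.52, 17.53, 16.38 and 15.75. Major urinary protein genes, pheromone carriers made chiefly by the liver and some glands, had 5 of 8 higher and 0 lower in NC, with a median of 1.81 in NC and -3.79 in HFD. Mup2 read 14.09, 16.73, 11.80 and 5.95, highest on shNrf3-NC but with both NC arrays above both HFD arrays. Mup9, Mup19 and Mup22 had the same order. These genes are near-identical and their probe sets cannot be assigned to single members. The heat shock gene Hspa1b, an inducible Hsp70, read 10.39, 12.53, 10.70 and 10.004. Its nucleotide exchange partner Hsph1 read 10.73, 12.88, 10.69 and 9.89, and both were high on shNrf3-NC alone. The list of unfolded protein response and heat shock genes had 8 of 22 higher and 0 lower, with a median of 0.84 in NC and -0.17 in HFD.

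**Figure D3:**
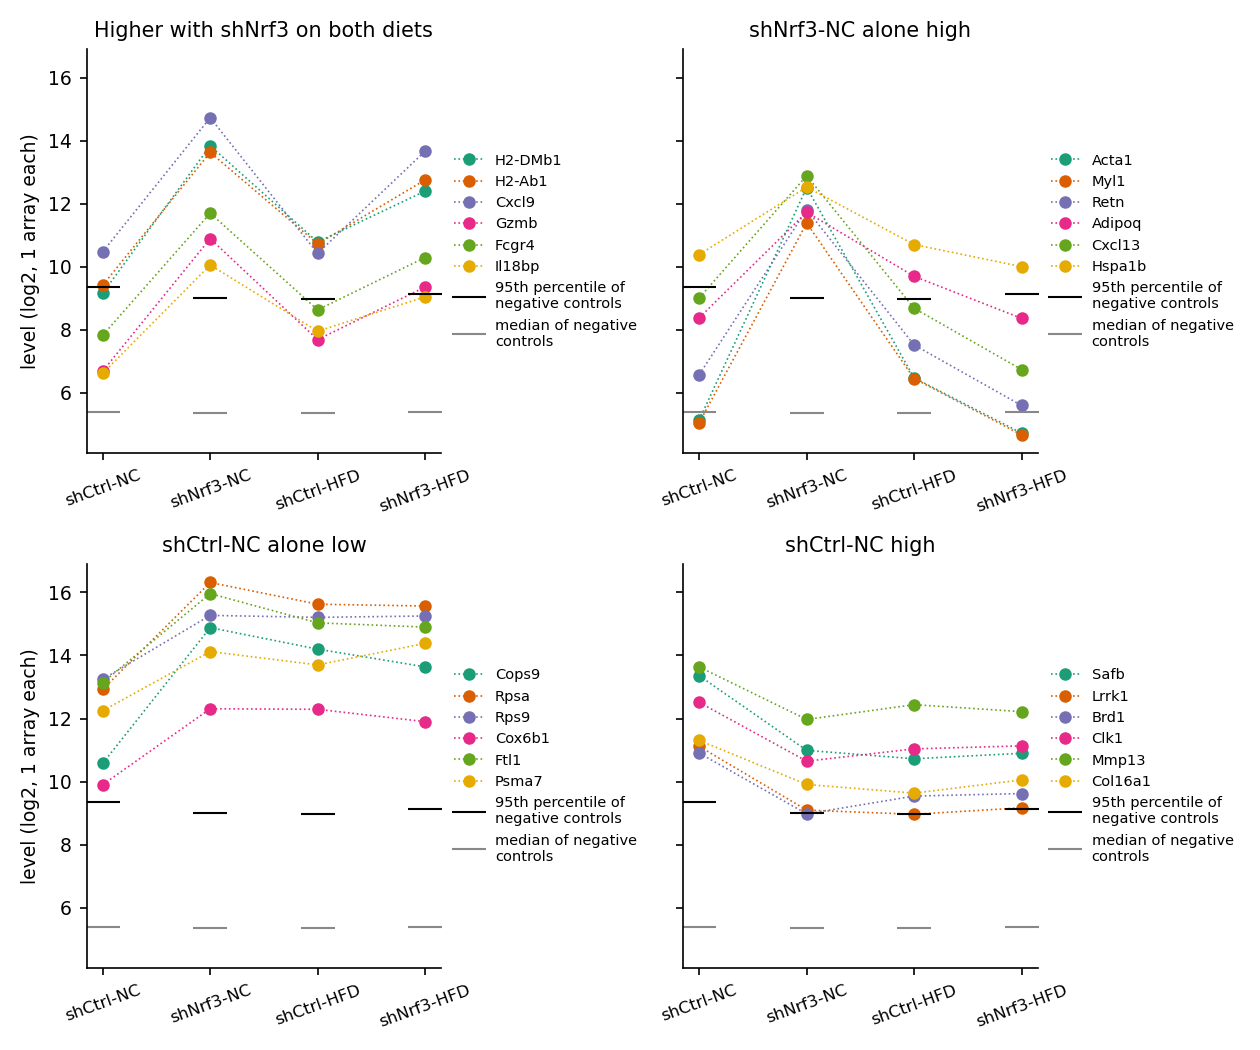
Each panel plots the log2 level of 6 genes on the 4 arrays, 1 point per array, with dotted lines only to guide the eye, and black and grey bars mark the 95th percentile and the median of each array's negative controls. The panels show the patterns described: both shNrf3 arrays above both shCtrl arrays (Cxcl9 at 14.73 and 13.66), shNrf3-NC alone high (Acta1 at 12.51), shCtrl-NC alone low (Cops9 at 10.58) and shCtrl-NC high (Safb at 13.36).

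Genes of the core machinery of the cell were higher in NC mostly with shCtrl-NC as the lowest array. Of 27 ribosomal protein genes 15 were past 2-fold higher and 0 lower in NC, with a median of 1.04, but the median ran from 0.62 to 1.12 over the scalings. The HFD counts were 0 higher and 1 lower at a median of -0.02. The shCtrl-NC array was the lowest in 25 of the 27 and stood apart from the other 3 by 2-fold in 12. Rpsa, the laminin-binding ribosomal protein, read 12.93, 16.31, 15.63 and 15.57, and Rps9 read 13.25, 15.27, 15.21 and 15.25. The 3 other arrays lay close together in Rps9 and less so in Rpsa. Over 63 ribosomal protein symbols of the Rpl and Rps families, taken after the values were seen, 37 were higher and 1 lower, and shCtrl-NC was lowest in 55.

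Respiratory chain genes also had shCtrl-NC as the lowest array in most members, but shNrf3-NC was more often the highest. It was highest in 22 of 34 genes of complexes II to V and 13 of 28 of complex I. That compares with 9 of 27 ribosomal protein genes and 21.4% of all measured genes. In complexes II to V 17 of 34 were higher and 0 lower, at a median of 0.97 in NC and -0.03 in HFD, and shCtrl-NC was lowest in 31. In complex I 12 of 28 were higher and 0 lower, at a median of 0.70, and shCtrl-NC was lowest in 17. Cox6b1, a subunit of cytochrome oxidase, read 9.91, 12.31, 12.29 and 11.90. Atp5g1, of the rotor ring of ATP synthase, read 9.58, 11.93, 12.37 and 11.51, and Ndufb2, of complex I, read 7.83, 10.04, 9.21 and 9.61. All 17 symbols that begin with Atp5 had shCtrl-NC as the lowest array, 13 had shNrf3-NC as the highest, and 15 were past 2-fold higher. TCA cycle genes had 3 of 16 higher and 0 lower, with a median of 0.40. Fatty acid oxidation genes had 4 of 22 higher and 1 lower, at a median of 0.30.

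The constitutive proteasome, which Nrf3 is known to act on, had 8 of 31 genes higher and 0 lower in NC, with a median of 0.73, and 0 past 2-fold in either direction in HFD, with a median of -0.15. All 31 lay above the bar, where 17.6% of genes were higher. In 26 of the 31 shCtrl-NC was the lowest array, against 41.6% of the filtered genes. Psma7, of the outer ring of the core, read 12.25, 14.12, 13.70 and 14.38, and the catalytic ring gene Psmb2 read 9.38, 11.44, 11.10 and 10.29. Pomp read 11.06, 11.84, 11.40 and 11.69, differences of 0.78 in NC and 0.29 in HFD, neither past 2-fold.

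Single genes of no list had this pattern at a larger size. Cops9, a small subunit of the COP9 signalosome, had the largest difference above the bar outside muscle, fat and MHC class II, at 10.58, 14.88, 14.20 and 13.64, a difference of 4.30 in NC and -0.56 in HFD. Emp3, a small membrane glycoprotein, read 10.61, 14.04, 13.12 and 13.47. Ppdpf read 5.68, 9.26, 8.34 and 8.29. Ap2s1, the small chain of the AP2 adaptor of clathrin pits, read 6.79, 10.08, 9.36 and 9.72, and Pirb, an inhibitory receptor of myeloid cells, read 7.004, 9.99, 9.06 and 9.51. In each of these 5 genes only shCtrl-NC stood away from the others. Cryab, a small heat shock protein also abundant in muscle, read 6.80, 10.22, 8.25 and 8.05, with both NC arrays apart from the HFD arrays. How far the weak signal of shCtrl-NC accounts for this group was not tested.

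The antioxidant genes known as targets of NRF2 were mixed in pattern, with shCtrl-NC lowest in 14 of 27 and shNrf3-NC highest in 15. In NC 12 of 27 were higher and 0 lower, at a median of 0.92. The HFD counts were 2 and 1 at a median of 0.00. Ftl1, the ferritin light chain that stores iron, read 13.14, 15.96, 15.03 and 14.90, and the glutathione transferase gene Gstp1 read 8.50, 10.56, 10.40 and 9.97, the only 2 members in which shCtrl-NC stood apart from the other 3 arrays by 2-fold. The 2 genes higher in both diets were Hmox1, heme oxygenase, at 13.46, 14.84, 12.84 and 14.14, and Nqo1, a quinone reductase, at 5.86, 7.55, 6.50 and 7.58. The cystine transporter gene Slc7a11 read 10.45, 10.23, 10.48 and 10.52, alike on all arrays. Within the family of Nrf3 itself and its partners 1 of 10 was higher and 0 lower, and the median of 0.20 reached -0.00 under another scaling. Nfe2l1, which encodes NRF1, read 13.37, 13.32, 13.89 and 13.16, and Nfe2l2, which encodes NRF2, read 5.53, 6.76, 6.44 and 6.55, below the bar.

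Of 21 genes of macropinocytosis and nutrient sensing by mTORC1, 2 were higher and 0 lower in NC, at a median of 0.03 that changed sign with the scaling (-0.21 to 0.11). Cdc42, a GTPase that drives membrane ruffles, read 17.29, 17.52, 17.35 and 17.39, a difference of 0.22 that became -0.105 after loess on level. Mtor, the kinase of the complex, read 7.97, 9.15, 9.29 and 9.22, low on shCtrl-NC alone. Cholesterol synthesis genes had 4 of 16 higher and 0 lower, with a median of 0.34, and shCtrl-NC was lowest in 12. As 15 of the 16 passed the filter, their ground is 13.3% higher and 4.52% lower. Sqle, the squalene epoxidase, read 7.47, 9.42, 9.14 and 8.91. Srebf2, the transcription factor of the pathway, read 11.39, 11.72, 12.23 and 11.67. Genes of ATF4 and the amino acid response had 2 of 19 higher and 1 lower, with a median of -0.20, and the lower one was Atf4, at 13.06, 12.05, 11.96 and 11.65.

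Fatty acid synthesis had 9 of 15 genes higher and 0 lower in NC, with a median of 1.02 in NC and -0.47 in HFD. Scd1, the desaturase that makes oleate, read 13.16, 16.56, 15.29 and 14.82, so shNrf3-NC was high and shCtrl-NC low against both HFD arrays. Fasn, the fatty acid synthase, read 9.12, 10.84, 10.42 and 9.74. In this list too shCtrl-NC was lowest in 11 of 15 genes and shNrf3-NC highest in 10, beside the fat cell markers described above. Triglyceride storage and lipolysis genes had 7 of 22 higher and 2 lower, with a median of 0.26. Among them Agpat2, which makes phosphatidic acid, read 9.05, 11.80, 10.66 and 10.30.

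Fewer genes were lower on shNrf3-NC, and those with the largest differences included genes lower in both diets, genes high on shCtrl-NC alone and genes low on shNrf3-NC alone. Prdm1, the repressor BLIMP-1 of terminal differentiation, read 10.31, 7.49, 10.80 and 7.51, differences of -2.83 in NC and -3.29 in HFD, with the arrays of each hairpin close together. Tnfrsf22, a decoy receptor for TRAIL, read 10.58, 8.31, 10.14 and 8.39. Mest, an imprinted gene of mesoderm, read 9.77, 7.74, 9.30 and 7.95, and Arhgap32 read 7.91, 5.75, 7.90 and 5.62. Crabp1, which binds retinoic acid in the cytoplasm, read 8.96, 6.76, 9.60 and 5.64, and Dsc2, a cadherin of desmosomes, read 7.49, 4.99, 8.13 and 5.26 (-2.14 or lower in NC). In all 6 genes the shNrf3 arrays lay below both shCtrl arrays, which follows in part from picking genes by these same values. Arhgap32, Crabp1 and Dsc2 lay below the bar. Moxd1, a monooxygenase-like protein, read 11.96, 9.43, 11.24 and 10.20. Lmo7 and Npnt, an adhesion-associated LIM protein and a matrix ligand of kidney epithelium, were low on shNrf3-NC alone, at 13.22, 11.01, 13.30 and 12.67 and at 13.27, 11.23, 13.17 and 12.29.

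Collagen genes were lower in NC as a list. Of 21 measured 7 were past 2-fold lower and 1 higher, with a median of -0.79 (-0.995 to -0.71 over the scalings), and in 16 shCtrl-NC was the highest array, against 29.1% of all measured genes. The HFD median was -0.69, with 7 lower and 1 higher, and 2 genes were lower in both. These were Col6a3, at 12.75, 10.97, 11.65 and 10.47, and Col6a2, at 9.63, 8.24, 9.41 and 7.61, chains of the beaded collagen around cells. The fibrillar genes Col3a1 (17.56, 16.73, 16.91 and 14.99) and Col1a2 (14.94, 14.15, 14.12 and 12.50) differed by less than 2-fold in NC. Col16a1, a collagen on the surface of fibrils, read 11.31, 9.91, 9.63 and 10.05, high on shCtrl-NC alone. Genes that process collagen had 2 of 15 higher and 0 lower, with a median of 0.08 that changed sign with the scaling.

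Other matrix genes showed both patterns. Proteoglycans and matrix glycoproteins had 0 of 27 higher and 4 lower in NC, with a median of -0.22, against 1 and 10 at a median of -0.66 in HFD. Postn, the matricellular protein periostin of activated fibroblasts, read 16.02, 13.89, 14.26 and 12.85. Lum, the proteoglycan lumican that spaces collagen fibrils, read 13.53, 11.57, 11.75 and 8.73. In both shCtrl-NC was highest and shNrf3-HFD lowest, with shNrf3-NC slightly below shCtrl-HFD. Of 19 metalloproteinase and inhibitor genes 5 were lower and 2 higher, with a median of -0.08. The stromelysin genes Mmp10 (10.12, 8.24, 9.74 and 7.37) and Mmp3 (14.20, 12.96, 13.30 and 11.95) were lower in both diets, while the collagenase gene Mmp13 (13.63, 11.97, 12.44 and 12.22) was high on shCtrl-NC alone. Timp1, an inhibitor, went the other way at 11.86, 13.15, 12.79 and 11.90. Fibroblast markers had 0 of 19 higher and 3 lower in NC, against 8.56% and 6.68% of all measured genes. Their median was -0.43 and their mean levels were 8.25, 8.03, 7.86 and 7.24. The 7 members above the bar had a median of 0.53 instead, with 0 higher and 1 lower, so the list had no single direction. That lower member was Has2, at 11.61, 10.32, 10.51 and 10.61, while Mfap5 read 9.03, 9.89, 8.81 and 7.44. The part of fibroblasts in the matrix differences was not tested.

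Of 23 blood vessel endothelium markers 8 were past 2-fold lower in NC and 1 higher, against 6.68% and 8.56% of all measured genes, with a median of -0.36 (-0.42 in HFD), and 3 were lower in both diets. These were Cdh5, the VE-cadherin of the junctions, at 10.62, 8.65, 9.73 and 8.11, Kdr (VEGF receptor 2), at 8.50, 6.93, 8.47 and 6.90, and Flt1 (VEGF receptor 1), at 9.70, 8.45, 9.96 and 8.09. The shNrf3 arrays lay below both shCtrl arrays in all 3, which were picked as lower in both diets, and Kdr lay below the bar. Only 4 of the 23 markers reached the bar, 3 of them lower and 1 higher. The shCtrl-NC array was the highest in 12 of the 23, against 29.1% of all measured genes. Emcn, for one, read 9.71, 8.39, 8.68 and 8.16, high on shCtrl-NC alone. Pecam1 differed less, at 9.07, 8.42, 8.61 and 8.37, and Eng was the member higher, at 9.87, 11.17, 11.00 and 11.14 with shCtrl-NC low. Pericyte and smooth muscle markers had 4 of 13 lower and 1 higher, with a median of -0.55. Mcam, which pericytes and endothelium carry, read 10.15, 8.21, 8.56 and 7.91.

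The tumor cells' own epithelial markers were present on all arrays and somewhat lower on shNrf3-NC. Krt18, a keratin of simple epithelium, read 15.17, 14.46, 15.90 and 15.22, Krt8 read 14.42, 14.32, 15.08 and 14.79, and E-cadherin (Cdh1) read 13.97, 13.34, 14.64 and 13.85. The renal tubule genes Pax8 and Cdh16 lay below the control median on all arrays. The keratins and E-cadherin are epithelial rather than renal markers, so the renal origin is taken from the labels and was not checked here. Of 23 epithelial and renal markers 5 were past 2-fold lower and 0 higher, with a median of -0.64, and shNrf3-NC was the lowest array in 11. Only 1 of the 5 lay above the bar, and 8 of the 23 were below the control median on both NC arrays. The 9 markers above the bar had a median of -0.71. In HFD 3 of the 23 were lower and 2 higher, with a median of -0.49. Epcam, the epithelial adhesion molecule, read 10.65, 9.09, 11.12 and 10.63 and was low on shNrf3-NC alone. Keratinocyte genes had 5 of 26 lower and 0 higher, with a median of -0.67, but 11 were below the control median on both NC arrays and Krt14 (9.52, 8.35, 10.22 and 9.43) alone reached the bar. In HFD 10 of these genes were lower and 1 higher, with a median of -0.68, and 4 were lower in both diets.

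A set of nuclear and signalling genes was high on shCtrl-NC alone. Safb, a scaffold attachment and RNA-binding factor, read 13.36, 10.99, 10.72 and 10.90, a difference of -2.37 in NC and 0.17 in HFD. Atg16l2, a homolog of an autophagy protein, read 12.81, 10.78, 10.34 and 11.20. The kinase gene Lrrk1 read 11.12, 9.10, 8.96 and 9.17, and Brd1, a bromodomain scaffold of histone acetyltransferases, read 10.90, 8.98, 9.54 and 9.62. The 3 other arrays were close together in Safb and Lrrk1 and spread more widely in Atg16l2 and Brd1. Pxdn, a peroxidase of basement membranes, read 10.45, 8.57, 9.12 and 8.44. The splicing kinase gene Clk1, named after its values were seen, read 12.51, 10.65, 11.04 and 11.13. The list of nuclear RNA processing and splicing genes had 0 of 28 higher and 2 lower, with a median of -0.23 (-0.52 to -0.15), the lower ones being Safb and Hnrnpl.

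Proliferation genes differed by small amounts in NC. Of 28 mitosis genes 3 were higher and 0 lower, at a median of 0.39 in NC and -0.42 in HFD. Cdc20, the activator of the anaphase-promoting complex, read 7.55, 9.36, 8.84 and 9.001. Of 28 DNA replication genes 6 were higher and 2 lower, at a median of 0.30, among them the helicase subunit Mcm2 at 8.70, 9.88, 10.05 and 9.85. Both examples were low on shCtrl-NC. Mki67, the proliferation antigen, read 14.18, 13.49, 15.08 and 13.85. Cell cycle inhibitors and p53 targets had 1 of 18 higher and 1 lower, with a median of 0.29.

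Genes of hypoxia and glycolysis had 5 of 32 higher and 1 lower in NC. As 31 of the 32 passed the filter, these counts lay near the shares of the filtered genes, 13.3% and 4.52%. Their median was 0.47, where that of all measured genes was -0.03 and that of the filtered genes 0.14. The lactate dehydrogenase gene Ldha read 17.65, 18.61, 17.97 and 18.43. Immediate early genes respond within minutes to growth factors and handling. Of these 5 of 23 were higher in NC and 0 lower, with a median of 0.33 in NC and -0.51 in HFD. All 23 passed the filter, past which 13.3% of genes were higher and 4.52% lower. Zfp36, which speeds the decay of cytokine messages, read 10.17, 12.25, 11.34 and 11.48. A list of 14 reference genes had a median of 0.40, with 1 higher, the tubulin gene Tuba1b at 15.43, 16.75, 16.79 and 16.42.

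**Figure D4:**
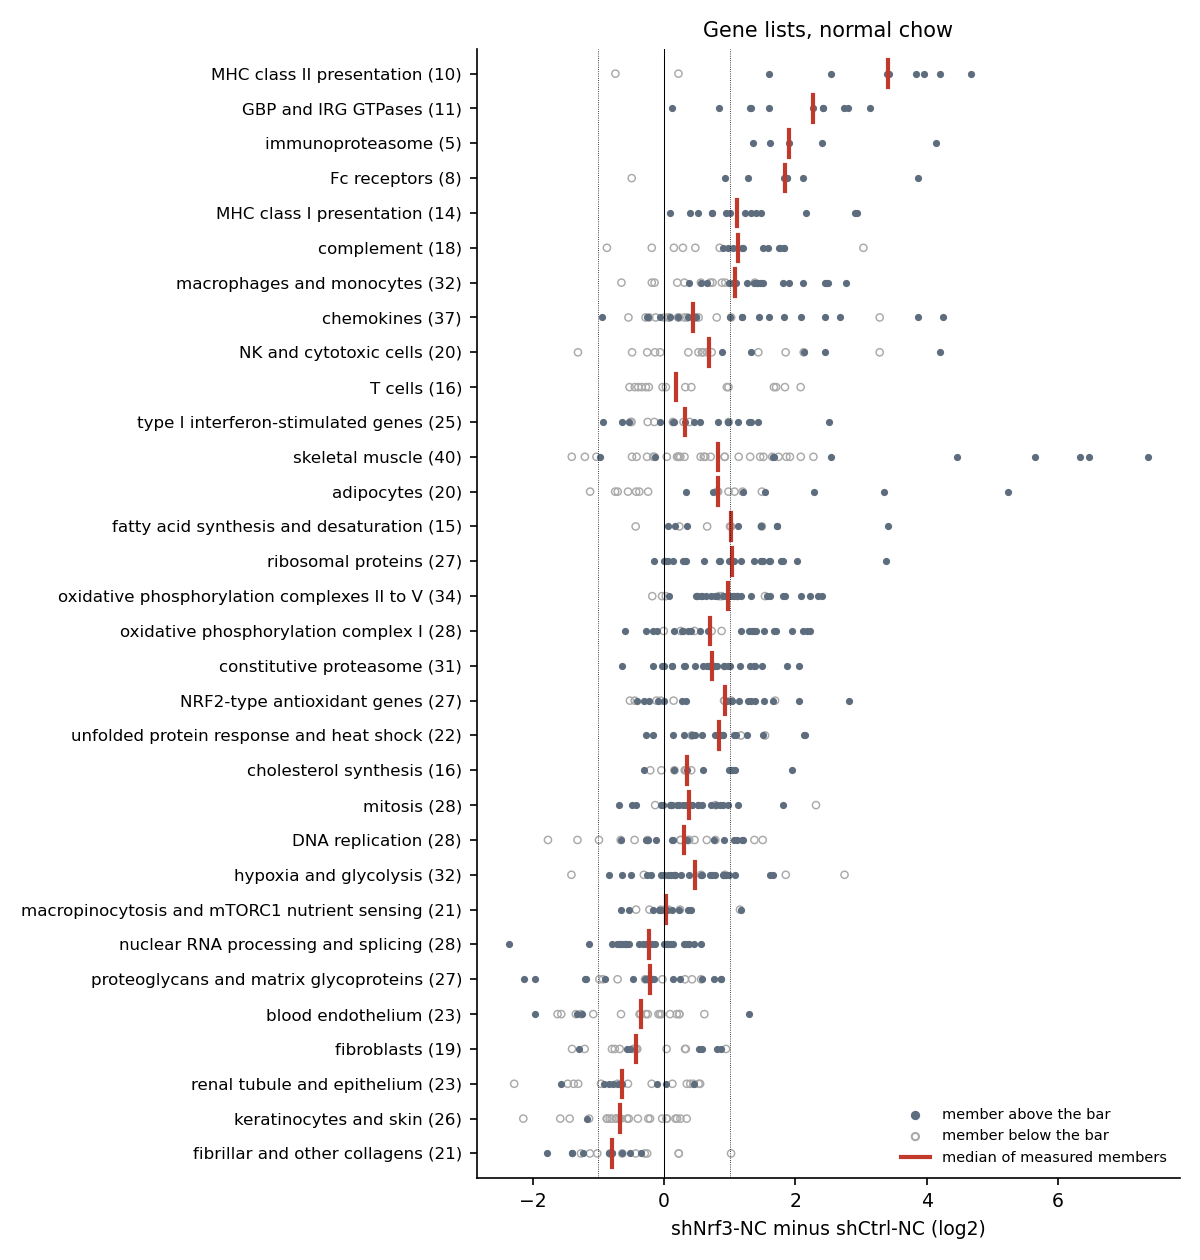
Each row is a gene list with its number of measured members, each point a member's shNrf3-NC minus shCtrl-NC difference (log2, filled where above the bar), and the red tick the median. Medians run from 3.41 for MHC class II presentation at the top to -0.79 for collagens at the bottom, and the points of single skeletal muscle genes lie farthest to the right.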

How the data were processed

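The deposited values are log2 expression levels. The submitters' processing notes name Affymetrix Expression Console and RMA as the authors' tools and give no version of either. Labelling started from 100 ng of total RNA, per the labels' protocols. The table has 28846 rows, with 5222 negative and 1324 positive control rows. Of the 22206 transcript rows, 19572 carried 1 gene symbol in the platform annotation, 0 several and 2634 none, and all Entrez IDs matched RefSeq genes of GRCm38.p6, used for names only. For the 55 genes with several probe sets the one with the highest mean was taken. Sequences and promoters were not used here.

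Differences are of the deposited log2 values, with a count of genes at 2-fold as the only call. Arrays give no depth of counts, and 1 array in each of 4 groups limits the precision and allows no test. Alternatives were centring each array on its median, cyclic loess, quantile normalization and loess on level (span 0.4, 4 iterations; limma 3.58.1 in R 4.3.3, Python 3.11.15), filters on level, the mean of probe sets, a 1.5-fold threshold and, added after the data were seen, centring on the filtered genes, readings set to the control median, the pattern over the 4 arrays and families by symbol. Of these steps, the loess on level was tested on simulated data.

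The members and the 59 gene lists (1156 of 1272 entries measured) were chosen with earlier results of these data known, and list counts include members below the filter. Named were Nfe2l3, the 15 genes each way with the largest difference above the bar, the 10 each way outside the lists, the 5 each way with the largest smaller-of-both difference in both diets and after loess on level, up to 6 members above the bar in each list, and defining members near the control level. Adgre1, Cd3g, Cd8a, Ciita, Ckm, Clk1, Csf1r, Ifi30, Ifng, Kdr, Krt8, Mki67, Ncr1, Nfe2l2, Nqo1, Pecam1, Plin1, Pomp, Prf1, S100a9 and Slc7a11 fall outside this rule and were added after their values were seen. Predicted genes and receptor segments were not named.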

Additional observations from a re-analysis of the deposited data

Results flagged for a closer look

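In 24 named genes and 1 list the hairpin difference was past 2-fold as deposited, or for the list in its median, in opposite directions on the 2 diets. The differences between diets were not tested, since each diet has 1 array per hairpin. The muscle genes were Acta1 (7.13 or more in NC, and -1.09 or lower in HFD), Myl1 (6.00 or more, and -1.07 or lower), Myh8 (5.40 or more, and -0.43 or lower) and Mylpf (4.47, and -1.74 or lower). Genes of fat cells and lipid handling were Retn (5.23, and -1.92), Adipoq (3.35, and -1.33), Cidec (2.29, and -1.84), Fabp4 (1.55, and -1.33), Pnpla2 (1.20, and -1.11), Elovl6 (1.13, and -1.02), Cyp51 (1.08, and -1.12) and Apoc1 (3.64 or more, and -0.84 or lower). Interferon, complement and inflammatory genes were Cxcl13 (3.87, and -1.94), Saa3 (3.37, and -1.19), Ifi27l2a (2.51, and -1.76), Serping1 (1.58, and -1.86), Ifit1 (1.30, and -1.65) and Usp18 (1.13, and -1.08). The others were Fosb (1.15, and -1.34), Mcm3 (1.06, and -1.22) and 4 major urinary protein genes with near-identical sequences, Mup2 (2.64, and -5.85), Mup22 (2.17, and -5.93), Mup19 (2.12, and -5.61) and Mup9 (1.496, and -5.36). The major urinary protein list had a median of 1.81 in NC and -3.79 in HFD.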

How the results depend on the processing

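No paired analysis was possible because each group has 1 array. No named gene past 2-fold changed sign under the 5 other scalings, while 10 named genes with differences of at most 0.37 in size did under at least 1 of them (Cdc42, Echs1, Irf7, Lox, Mdm2, Nfe2l1, Plat, Plau, Sfrp2 and Snx5). Of 311 named genes, 19 fell below 2-fold and 6 came past it after loess on level, 22 and 8 after cyclic loess, 29 and 9 after quantile normalization, 26 and 6 after centring on the filtered genes and 1 and 11 after centring on all rows. Without a filter 1303 genes were past 2-fold lower. A stricter filter (8.45) left 836 higher and 175 lower, with 54 higher and 42 lower in both diets. The bar left 856, 166 and, lower in both diets, 38. Centring on the filtered genes gave 790 lower, and a 1.5-fold threshold 2690 higher and 1352 lower.

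List medians near 2-fold crossed it. After cyclic loess, quantile normalization, loess on level and centring on the filtered genes, in this order, the medians were 0.85, 0.76, 0.87 and 0.91 for MHC class I, 0.93, 0.90, 0.95 and 0.91 for complement, 0.94, 0.95, 0.96 and 0.82 for fatty acid synthesis, 0.71, 0.62, 0.72 and 0.84 for ribosomal proteins and 0.95, 0.92, 0.95 and 0.87 for macrophages. Centring on all rows gave 1.003 for NRF2-type genes and 1.05 for complexes II to V. Over members past the filter the medians were 1.002 for complexes II to V, 1.32 for cytotoxic cells, -1.03 for pericytes, 1.14 for adipocytes and 1.67 for skeletal muscle. Under the stricter filter they were 1.09 for chemokines, 1.23 for checkpoints, 1.02 for NRF2-type genes, 1.06 for triglyceride storage, 1.06 for complexes II to V, 2.13 for cytotoxic cells, 1.02 for neutrophils, -1.25 for blood endothelium and 1.37 for adipocytes. Above the bar they were 1.18 for chemokines, 1.25 for checkpoints, 1.03 for NRF2-type genes, 1.06 for triglyceride storage and for complexes II to V, 1.17 for complex I, 2.13 for cytotoxic cells, 1.02 for neutrophils, 1.33 for dendritic cells, -1.28 for blood endothelium, 1.55 for adipocytes and 3.50 for skeletal muscle. Such filters keep genes that are high in 1 group, so these medians are no support. Lists with fewer than 3 members left have no value. The cause of these shifts was not tested.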
